A study of Mus musculus with 8 samples.

Results

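Urocortin 3 and somatostatin form a local signalling loop inside the pancreatic islet, and 8 genes of that loop were followed here in islet RNA of Wfs1KO and WT mice. They were the peptide gene Ucn3, the corticotropin-releasing hormone (CRH) receptor genes Crhr1 and Crhr2, and the somatostatin receptor genes Sstr1, Sstr2, Sstr3, Sstr4 and Sstr5, chosen by name from the 24537 genes of the deposited count table, and all 8 were found in it. Islets came from male mice at 12 weeks of age, 4 Wfs1KO samples and 4 WT samples, and were freed with collagenase and purified on a density gradient. The labels give the genotype as a Wfs1 knockout, without the allele, the strain or the number of mice behind each sample. The protein made from Wfs1, wolframin, sits in the membrane of the endoplasmic reticulum, and its loss causes Wolfram syndrome.

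Ucn3 is a peptide of the CRH family that mouse beta cells store and release together with insulin. In mouse islets it acts on the Crhr2 receptor of delta cells and raises the release of somatostatin, which in turn holds back insulin and glucagon through somatostatin receptors on beta and alpha cells. The CRH receptors signal mainly through Gs proteins and cyclic AMP, and the somatostatin receptors through Gi and Go proteins, which lower cyclic AMP and open potassium channels. Ucn3 appears late in the maturation of mouse beta cells and is widely used as a marker of the mature state.

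Libraries held 16395855 to 27057617 exon counts in Wfs1KO and 15810830 to 21552731 in WT. Wfs1 itself kept reads in every Wfs1KO library and stood at 107 ± 11.8 CPM (counts per 1000000 counts) in Wfs1KO and 179 ± 15.6 CPM in WT (SD, n = 4 each), a log2 fold change of -0.74. The hormone genes of islets were abundant in all libraries, with Ins2 at 58208 CPM or more, Gcg at 14516 CPM or more, Ppy at 1869 CPM or more and Sst at 1906 CPM or more. The main axis of variation between libraries parted replicates 1 and 2 from replicates 3 and 4 in both genotypes, and the share of aligned tags that fell in exons ran from 59.95% to 66.9% in the first pair and from 71.9% to 76.5% in the second. Nothing in the labels says whether the samples came from separate mice, so p-values measure the spread between these samples.

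Ucn3 fell in Wfs1KO islets and was the sole member that passed the test of genotype without a block. With the replicate number as a block Crhr1 passed as well (-1.50, adjusted p = 0.0272). Of the 8 members, 6 passed the filter on low counts (Ucn3, Crhr1, Crhr2, Sstr1, Sstr2 and Sstr3) and 2 did not (Sstr4 and Sstr5). Of the 6, 1 was called (edgeR's quasi-likelihood F-test, adjusted p under 0.05), 0 rose, and 5 did not pass. Of all 15733 genes tested 18.9% were called, 10.4% higher and 8.49% lower in Wfs1KO. By an unadjusted p under 0.05 there were 3 (Ucn3, Crhr1 and Crhr2). The genotypes did not overlap in 1 of the 6, Ucn3, where Wfs1KO was lower. Of all tested genes 22.6% had no overlap, 12.3% with Wfs1KO higher and 10.3% with Wfs1KO lower.

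**Figure D1:**
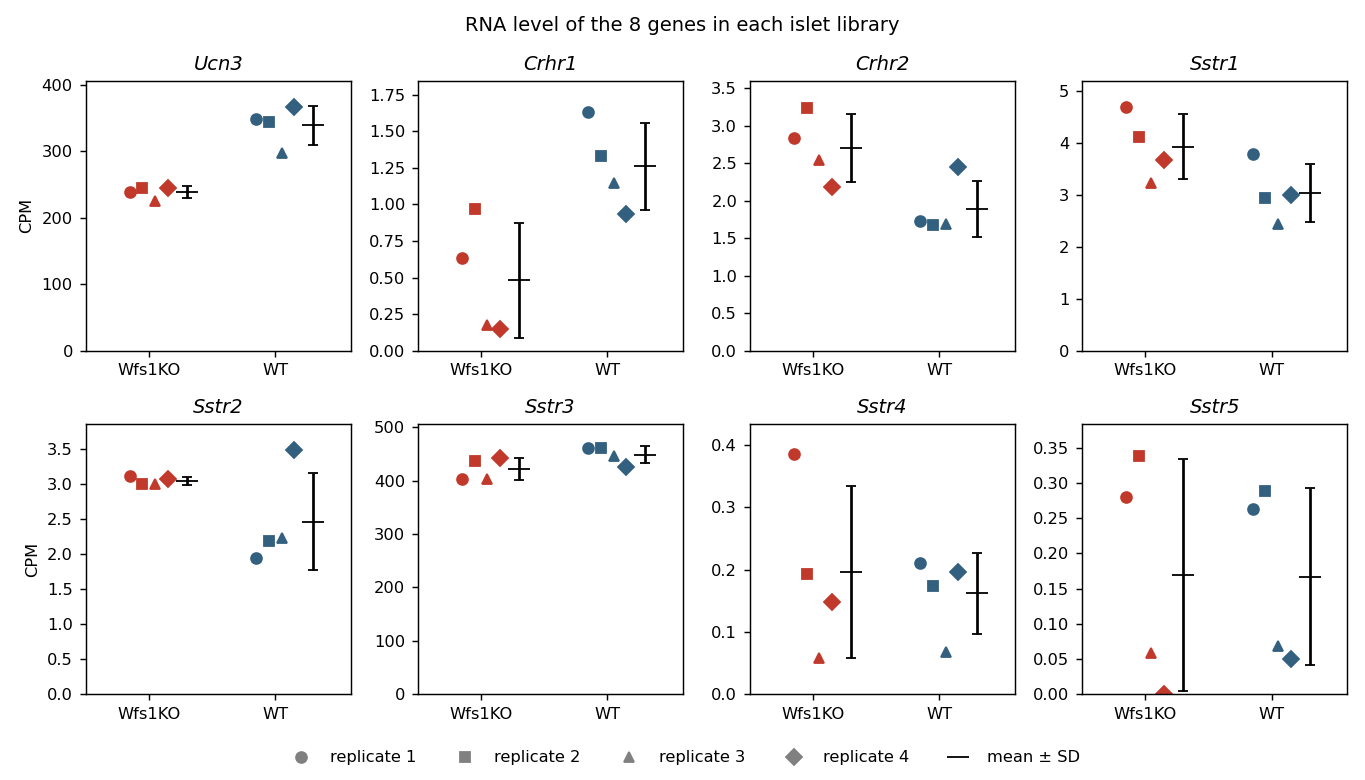
CPM (y axis, from 0, scaled per gene) of the 8 genes in each library, with Wfs1KO to the left of WT, the replicate number as the marker shape and the mean ± SD beside each group. Ucn3 is the panel in which all 4 Wfs1KO libraries (226 to 245 CPM) lie below all 4 WT libraries (297 to 366 CPM).

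Ucn3 (NM_031250, chromosome 13, 3940688 to 3945349 in mm10, minus strand, 2 exons in GENCODE M21) had 239, 245, 226 and 244 CPM in Wfs1KO replicates 1 to 4. In WT replicates 1 to 4 it had 348, 344, 297 and 366 CPM. The Wfs1KO libraries lay within a narrow band below every WT library, and the lowest WT library was replicate 3. The means were 238 ± 9.14 CPM in Wfs1KO and 339 ± 29.3 CPM in WT (SD, n = 4 each), a log2 fold change of -0.51 (95% interval -0.65 to -0.36, SE 0.07, edgeR quasi-likelihood adjusted p = 1.52e-04). Transcript fell by 29.6%, with 3909 to 6814 counts behind each Wfs1KO value and 4404 to 7464 behind each WT value. Between replicates 1 and 2 alone the log2 fold change was -0.54, and between replicates 3 and 4 alone it was -0.51, each past the threshold. In the authors' deposited table the log2 fold change of Ucn3, KO over WT, was -0.50 with an adjusted p of 1.49e-13, in a table that calls 12.4% of its genes.

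In islet tissue, fewer cells of a type and less RNA per cell cannot be told apart. Markers of beta cells moved with Ucn3: of 14 tested, 12 fell, 1 rose (Iapp, 0.24, named after its value was seen) and 1 did not pass (median log2 fold change -0.67, against 0.01 over all tested genes), and their summed level was 110850 to 136068 CPM in Wfs1KO and 163895 to 209681 CPM in WT. Among them the granule protein gene Sytl4 fell by 1.26 and the fatty acid receptor gene Ffar1 by 1.16 on the log2 scale. Endothelial markers were higher in the same libraries, with 11 of 12 called (817.6 to 957 CPM summed in Wfs1KO and 595 to 681 CPM in WT), among them Pecam1 (0.64) and Eng (0.67). Of 12 markers of pericytes, smooth muscle and stellate cells 5 rose (390.2 to 462 CPM summed in Wfs1KO and 242 to 330.3 CPM in WT), Rgs5 by 0.70 and Myh11 by 0.62. Calls made up 92.9% of the beta cell list, 91.7% of the endothelial list and 41.7% of the list that holds pericyte markers. Over all 15733 tested genes the share was 18.9%, with 10.4% for rises and 8.49% for falls. Whether the shifts of these markers have a part in the fall of Ucn3 was not tested.

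The 250 bases upstream of the RefSeq start site are shown for Ucn3, the gene that fell, for Sstr3, the most abundant receptor, and for Sstr2, whose window holds a motif that was searched for. The sequences are RefSeq's, build GRCm38.p6, written 5′ to 3′ on the strand of the gene, and capitals mark the matched motif.
Ucn3 (chr13:3945350-3945599, minus strand): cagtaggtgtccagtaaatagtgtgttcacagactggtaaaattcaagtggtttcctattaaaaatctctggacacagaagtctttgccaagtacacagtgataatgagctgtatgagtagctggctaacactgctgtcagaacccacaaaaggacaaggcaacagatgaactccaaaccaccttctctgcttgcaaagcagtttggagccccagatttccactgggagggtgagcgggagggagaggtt
Sstr3 (chr15:78544346-78544595, minus strand): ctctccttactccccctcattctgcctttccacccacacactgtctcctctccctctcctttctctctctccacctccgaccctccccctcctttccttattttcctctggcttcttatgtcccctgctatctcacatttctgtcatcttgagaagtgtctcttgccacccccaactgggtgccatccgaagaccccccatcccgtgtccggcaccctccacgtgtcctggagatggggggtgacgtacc
Sstr2 (chr11:113619077-113619326, plus strand): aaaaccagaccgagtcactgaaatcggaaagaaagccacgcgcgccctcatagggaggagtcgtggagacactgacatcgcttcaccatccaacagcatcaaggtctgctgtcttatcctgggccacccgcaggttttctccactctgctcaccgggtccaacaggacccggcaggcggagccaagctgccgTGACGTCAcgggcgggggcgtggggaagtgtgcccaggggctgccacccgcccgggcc
These 250 bases were searched on both strands. The motifs were the cyclic AMP response element TGACGTCA, the core TGATGNAA of composite sites bound by ATF4, the MAF core TGCTGAC, the homeodomain site TAATTA and the ER stress response element, read as CCAAT and CCACG with 9 bases between them. The windows of Ucn3 and Sstr3 held 0 matches to these letters. The same search of the windows of Crhr1, Crhr2, Sstr4 and a second start site of Sstr3, not shown, also gave 0 matches. The window of Sstr2 held 1 match, to the cyclic AMP response element, which starts 58 bases before the start site. Of 32851 RefSeq windows of the same length, 1.55% hold that element, 3.45% the ATF4 core, 3.81% the MAF core, 4.84% TAATTA and 0.113% the ER stress response element. The Sstr2 entry of the count table starts 154 bases downstream of that start site, while those of Ucn3 and Sstr3 start at the sites shown.

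Both CRH receptor genes had few reads, and neither passed the test of genotype without a block. Crhr2 (NM_001288619, chromosome 6, minus strand), the receptor through which Ucn3 acts on delta cells, had 2.84, 3.24, 2.54 and 2.18 CPM in Wfs1KO replicates 1 to 4, on 44 to 81 counts each. In WT replicates 1 to 4 it had 1.73, 1.67, 1.69 and 2.45 CPM, on 25 to 50 counts each. WT replicate 4 lay inside the Wfs1KO range, and the other 3 WT libraries lay below it. Crhr2 averaged 2.70 ± 0.452 CPM in Wfs1KO and 1.89 ± 0.379 CPM in WT (SD, n = 4 each), a log2 fold change of 0.51 (95% interval 0.03 to 0.99, SE 0.22, edgeR quasi-likelihood adjusted p = 0.132). The interval is not adjusted for the number of genes tested. The log2 fold change was 0.81 in replicates 1 and 2 alone and 0.16 in replicates 3 and 4 alone, and 0.67 without WT replicate 4, none of them past the threshold. The entry in the count table is a transcript that starts 15103 bases downstream of the RefSeq start site at 55133016, and whether reads of the longer transcripts were counted is not stated.

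Crhr1 (NM_001313929, chromosome 11, plus strand), a receptor for CRH and urocortin that mouse beta cells carry and that binds Ucn3 only weakly, had a fold change of the opposite sign to that of Crhr2. It had 0.630, 0.968, 0.173 and 0.148 CPM in Wfs1KO replicates 1 to 4, from 18, 20, 3 and 3 counts. In WT replicates 1 to 4 it had 1.63, 1.33, 1.15 and 0.933 CPM, from 31, 23, 17 and 19 counts. The highest Wfs1KO library overlapped the lowest WT library, and the 2 lowest values were Wfs1KO replicates 3 and 4. The log2 fold change was -1.35 (95% interval -2.43 to -0.26, SE 0.50, edgeR quasi-likelihood adjusted p = 0.0815). Besides the block named above, it passed without Wfs1KO replicate 2 (-1.88, adjusted p = 0.0340). In replicates 1 and 2 alone it was -0.94 (adjusted p = 0.121), and in replicates 3 and 4 alone -2.65 (adjusted p = 0.0105). The authors' deposited table gives Crhr1 a log2 fold change, KO over WT, of -0.50 and an unadjusted p of 0.00979. The adjusted value printed there for Crhr1 is not read as a test result. It lies above that of Sstr3 (adjusted p = 0.153), whose unadjusted p in the authors' comparison is larger (0.0486).

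**Figure D2:**
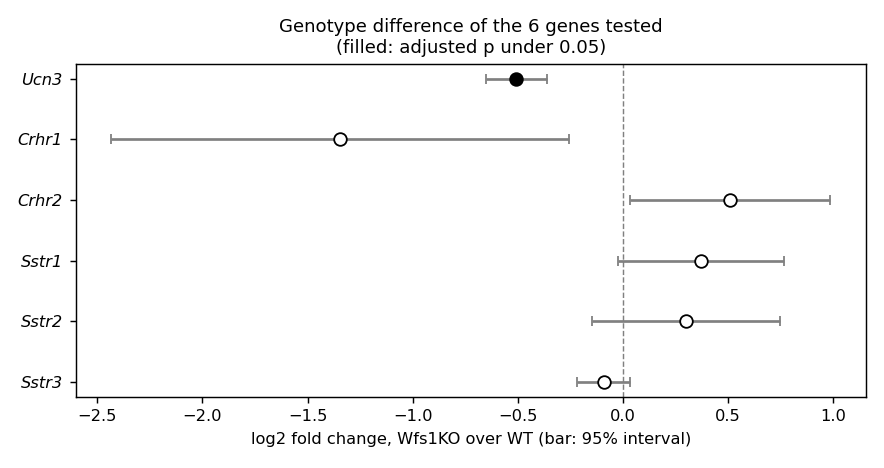
Log2 fold change of Wfs1KO over WT (x axis) for the 6 genes that passed the low-count filter, with bars for the 95% interval and filled points for an adjusted p under 0.05. The filled point is Ucn3 at -0.51, the widest bar is Crhr1 (-2.43 to -0.26), and the narrowest is Sstr3 (-0.22 to 0.03).

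Of the other ligands of these receptors, CRH and the urocortins were at the limit of detection. Crh had 2 counts in Wfs1KO replicate 1 and 0 in the other 7 libraries. Ucn, which encodes urocortin, had 0 to 2 counts per library, and Ucn2 had 0 to 4. None of the 3 passed the filter, so Ucn3 was the sole ligand of the CRH receptors with more than 4 counts in any library. Crhbp, which encodes a secreted protein that binds CRH, had 3.01, 3.48, 1.90 and 2.87 CPM in Wfs1KO replicates 1 to 4 and 1.42, 1.79, 3.38 and 1.96 CPM in WT replicates 1 to 4. The genotypes overlapped, and the log2 fold change of 0.42 did not pass (edgeR quasi-likelihood adjusted p = 0.340).

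Among the somatostatin receptor genes, Sstr3 held nearly all of the transcript, and its level differed little between genotypes. Sstr3 (NM_009218, chromosome 15, 78537015 to 78544345 in mm10, minus strand) encodes the receptor that mouse beta cells place on their primary cilium. It had 403, 437, 404 and 442 CPM in Wfs1KO replicates 1 to 4 and 460.5, 461, 447 and 426 CPM in WT replicates 1 to 4. The ranges overlapped, with Wfs1KO replicates 2 and 4 above the lowest WT library. The means were 421 ± 21.04 CPM in Wfs1KO and 449 ± 16.3 CPM in WT (SD, n = 4 each), a log2 fold change of -0.09 with an SE of 0.06 (edgeR quasi-likelihood adjusted p = 0.322). The 95% interval ran from -0.22 to 0.03, which spans a change of -13.9% to 2.44%. Counts of 6618 to 11502 per library stand behind these values, so that counting error is small beside the spread between samples.

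Sstr2 (NM_009217, chromosome 11, plus strand), the main somatostatin receptor of mouse alpha cells, had 3.12, 3.0001, 3.0003 and 3.07 CPM in Wfs1KO replicates 1 to 4. In WT replicates 1 to 4 it had 1.94, 2.19, 2.23 and 3.48 CPM. The Wfs1KO libraries lay close together, above 3 of the WT libraries and below WT replicate 4. The log2 fold change was 0.30 (95% interval -0.15 to 0.75, SE 0.21, edgeR quasi-likelihood adjusted p = 0.359). Without WT replicate 4 it was 0.52 (adjusted p = 0.0959).

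Sstr1 (NM_009216, chromosome 12, plus strand) had 4.69, 4.113, 3.23 and 3.66 CPM in Wfs1KO replicates 1 to 4 and 3.78, 2.94, 2.43 and 2.99 CPM in WT replicates 1 to 4. The highest WT library, replicate 1, lay above the lowest 2 Wfs1KO libraries. The log2 fold change was 0.37 (95% interval -0.02 to 0.76, SE 0.18, edgeR quasi-likelihood adjusted p = 0.189). The markers of alpha cells, one of the cell types that carry somatostatin receptors, were also read. Their summed level was 19287 to 26655 CPM in Wfs1KO and 16634 to 21438 CPM in WT, most of it Gcg. Of 10 tested, 1 was higher (Gc, 1.098), 1 lower (Slc7a2, -0.58, which shares exons with a gene on the other strand) and 8 did not pass. So 20% of the list was called, against 18.9% of all tested genes.

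Sstr4 and Sstr5 were close to the limit of detection in both genotypes. Sstr4 had 11, 4, 1 and 3 counts in Wfs1KO replicates 1 to 4 and 4, 3, 1 and 4 counts in WT replicates 1 to 4. Sstr5, a receptor also described in mouse beta cells, had 8, 7, 1 and 0 counts in Wfs1KO replicates 1 to 4 and 5, 5, 1 and 1 counts in WT replicates 1 to 4. The reads of Sstr5 lay almost wholly in replicates 1 and 2 of both genotypes, 25 counts against 3 in replicates 3 and 4. A count of 0 in Wfs1KO replicate 4 allows up to 0.147 CPM (3 counts, counting error only). Both were left out of the test by the filter. Fitted with no filter, Sstr4 had an edgeR quasi-likelihood adjusted p of 0.900 and Sstr5 one of 0.979.

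Crhr1, Sstr4 and Sstr5 were each lower in replicates 3 and 4 than in replicates 1 and 2 of the same genotype when the pairs were averaged, and so were Ucn3 and Sstr1. Ucn3 averaged 242 and 235 CPM in the first and second pair of Wfs1KO, and 346 and 332 CPM in those of WT. Sstr1 averaged 4.40 and 3.45 CPM in the pairs of Wfs1KO, and 3.36 and 2.71 CPM in those of WT. Crhr1 averaged 0.799 and 0.161 CPM in the first and second pair of Wfs1KO, and 1.48 and 1.04 CPM in those of WT. Sstr5 averaged 0.309 and 0.0288 CPM in the 2 pairs of Wfs1KO, and 0.276 and 0.0583 CPM in those of WT. The exon share of the libraries moved with this, at 62.2%, 66.9%, 76.5% and 76.2% in Wfs1KO replicates 1 to 4 and 65.3%, 59.95%, 73.3% and 71.9% in WT replicates 1 to 4. With the exon share as a covariate the log2 fold change of Crhr1 was -1.23 and passed (edgeR quasi-likelihood adjusted p = 0.0295), while its part in the reads of Sstr4 and Sstr5 was not tested.

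**Figure D3:**
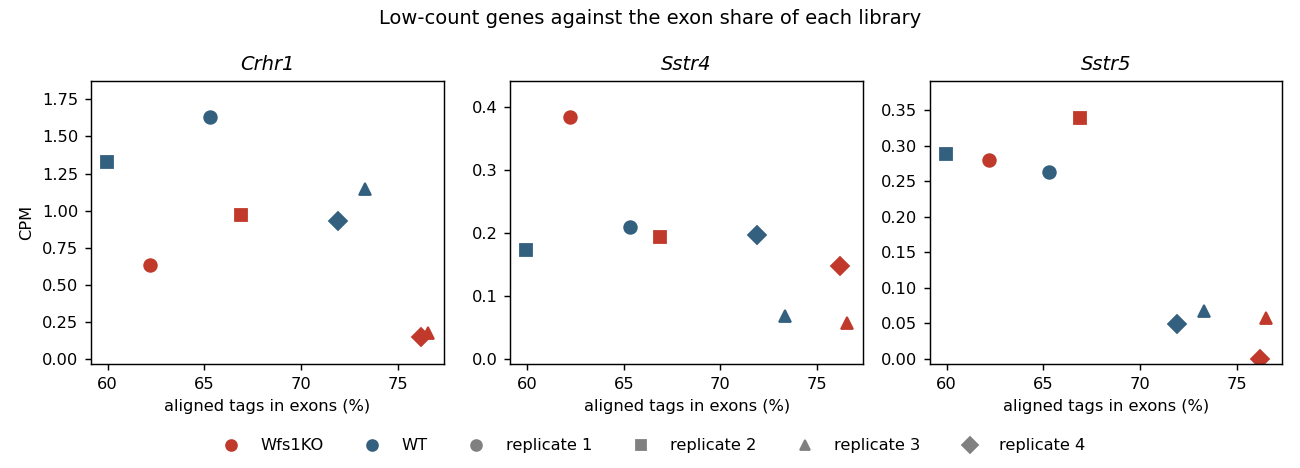
CPM of 3 genes with few reads (y axis) against the percentage of aligned tags in exons (x axis), 1 point per library, coloured by genotype and shaped by replicate. The 4 libraries with an exon share of 66.9% or less (replicates 1 and 2) hold all Sstr5 values above 0.0675 CPM.

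Set against each other per length of transcript, the members fell into 2 levels. In Wfs1KO the order was Ucn3 (162 ± 6.20 CPM per kb), Sstr3 (107 ± 5.36), Sstr2 (1.99 ± 0.0371), Crhr2 (1.04 ± 0.174), Sstr1 (1.02 ± 0.162), Crhr1 (0.185 ± 0.152), Sstr4 (0.142 ± 0.0997) and Sstr5 (0.0620 ± 0.0606), all as mean ± SD with n = 4. In WT the order was Ucn3 (229.9 ± 19.9 CPM per kb), Sstr3 (114 ± 4.16), Sstr2 (1.61 ± 0.454), Sstr1 (0.786 ± 0.144), Crhr2 (0.728 ± 0.146), Crhr1 (0.486 ± 0.114), Sstr4 (0.117 ± 0.0467) and Sstr5 (0.0612 ± 0.0463), again with n = 4. Neighbours whose libraries overlapped were Crhr2 and Sstr1, and Sstr4 and Sstr5, in both genotypes, and Crhr1 and Sstr4 in Wfs1KO. All other neighbours were apart in every library of a genotype. Ranked over the 24537 genes by level per kb, Ucn3 was number 185 in Wfs1KO and number 109 in WT, and Sstr3 number 338 in Wfs1KO and number 291 in WT.

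Of the summed level per kb of the 5 somatostatin receptor genes, Sstr3 made up 97.1% ± 0.353 in Wfs1KO and 97.8% ± 0.452 in WT (SD, n = 4 each). Sstr2 made up 1.81% ± 0.0985 in Wfs1KO and 1.39% ± 0.441 in WT, and Sstr1 0.920% ± 0.160 in Wfs1KO and 0.671% ± 0.115 in WT. The shares of Sstr3 overlapped between genotypes. The ratio of Crhr2 to Crhr1 per kb was 4.502, 3.35, 14.7 and 14.7 in Wfs1KO replicates 1 to 4 and 1.06, 1.26, 1.47 and 2.63 in WT replicates 1 to 4. Each of the 4 Wfs1KO ratios was above every WT ratio, and those of Wfs1KO replicates 3 and 4 rest on 3 counts of Crhr1 each. This ratio was not a planned comparison and was not tested, and neither gene passed the fit without a block.

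**Figure D4:**
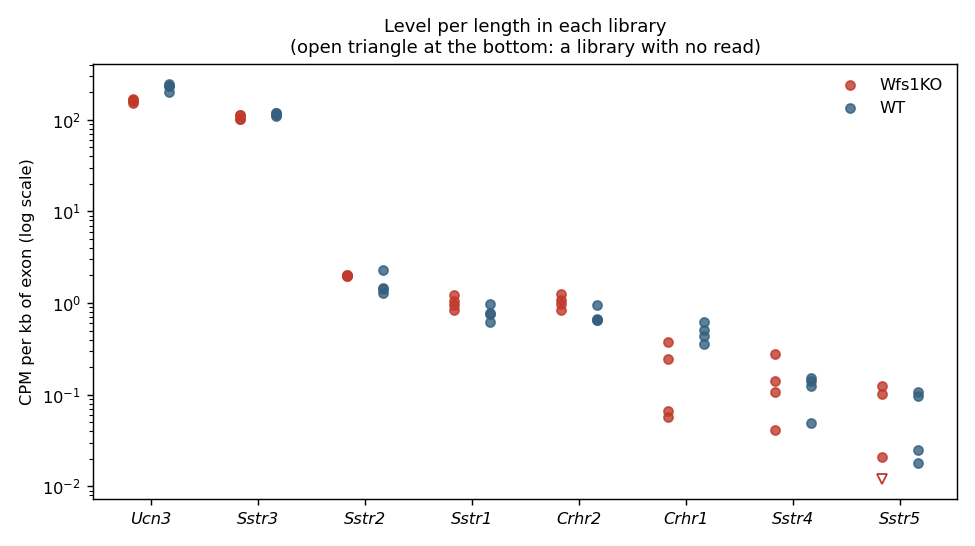
Level per kb of exon (y axis, log scale) of the 8 genes in each library, in the order of their WT means, with Wfs1KO to the left of WT. Ucn3 and Sstr3 lie above 100 CPM per kb and the other 6 genes below 2.3 CPM per kb, and the open triangle is Wfs1KO replicate 4, which had no read of Sstr5.

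The peptide that answers Ucn3 moved in the other direction. Sst, the somatostatin gene of delta cells, had 2651, 3124, 2973 and 2189 CPM in Wfs1KO replicates 1 to 4 and 2052, 1906, 2095 and 2292 CPM in WT replicates 1 to 4. Wfs1KO replicate 4 lay inside the WT range and the other 3 Wfs1KO libraries above it. Sst rose by a log2 fold change of 0.39 with an SE of 0.10 (edgeR quasi-likelihood adjusted p = 0.0172), but the call was lost without Wfs1KO replicate 2 or 3 or WT replicate 1 (adjusted p 0.0506 to 0.0618), in replicates 3 and 4 alone (0.402) and with a score of acinar transcripts as covariate (0.0526). Cort, which encodes cortistatin, a second ligand of these receptors, had 1 to 11 counts per library and was not tested. Among 6 tested markers of delta cells, 4 were higher (Sst, Hhex, Ffar4 and Ghsr), 0 lower and 2 uncalled (median 0.40). Their summed level was 2315 to 3262 CPM in Wfs1KO and 2008 to 2406 CPM in WT, most of it Sst itself. Of the tested delta cell markers 66.7% were called, against 18.9% of all tested genes. Ghsr was close to the threshold (edgeR quasi-likelihood adjusted p = 0.0467). Hhex lost its call in replicates 1 and 2 alone (adjusted p = 0.0998) and in replicates 3 and 4 alone (0.0994). Ppy, the hormone gene of PP cells, did not pass (0.21, adjusted p = 0.422), nor did the other of 2 PP cell markers. Of these 2, 1 had an unadjusted p under 0.05 in edgeR, and DESeq2 and limma-voom called 0.

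The ratio of Sst counts to Ucn3 counts was 11.1, 12.7, 13.2 and 8.95 in Wfs1KO replicates 1 to 4 and 5.90, 5.54, 7.04 and 6.25 in WT replicates 1 to 4. Every Wfs1KO ratio was above every WT ratio. The ratio averaged 11.5 ± 1.91 in Wfs1KO and 6.18 ± 0.642 in WT (SD, n = 4 each), 1.85-fold higher in Wfs1KO, with p = 0.0286 in a two-sided exact permutation test, the smallest that 4 against 4 samples allow. Adjusted over the 2 ratios tested, p was 0.0571 in this exact test, which did not pass.

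Set against insulin transcript in place of all transcript, Ucn3 was on average higher in Wfs1KO, and this did not pass. Ucn3 had 2.45, 2.30, 2.41 and 2.89 counts per 1000 counts of Ins1 and Ins2 together in Wfs1KO replicates 1 to 4 and 2.37, 2.33, 2.14 and 2.01 in WT replicates 1 to 4. Wfs1KO replicate 4 was the highest of all libraries, and Wfs1KO replicate 2 lay inside the WT range. The ratio averaged 2.51 ± 0.259 in Wfs1KO and 2.21 ± 0.167 in WT (SD, n = 4 each), a log2 difference of 0.18 with p = 0.0857 in a two-sided exact permutation test, raw and adjusted over the 2 ratios alike. The difference was 0.02 in replicates 1 and 2 alone and 0.34 in replicates 3 and 4 alone, and 0.11 without Wfs1KO replicate 4. Against Ins2 alone it was 0.29, with every Wfs1KO library above every WT library (p = 0.0286, exact permutation test), and how reads shared by Ins1 and Ins2 were counted is not stated. Ins2 fell by 0.79 and Ins1 by 0.41 on the log2 scale.

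Markers of other cell types that an islet preparation can hold were also read. Of 14 tested acinar markers 0 were called (10588 to 71949 CPM summed in Wfs1KO and 33942 to 76570 CPM in WT), and of 10 immune markers likewise 0 (231 to 614 CPM in Wfs1KO and 237 to 394 CPM in WT). In both lists edgeR gave 0 at an unadjusted p under 0.05, and DESeq2 and limma-voom called 0. Over all tested genes edgeR called 18.9%. The ductal marker Spp1 was higher (0.77). Its call was lost without Wfs1KO replicate 1 or 2 or WT replicate 1 (adjusted p 0.0680 to 0.0771), with the replicate number as a block (0.0559) and with no filter (0.0825), and it shares exons with another gene.

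The enzymes that make active peptides from precursors such as pro-urocortin and prosomatostatin differed in their calls between tools. Of 4 tested, edgeR called 1, DESeq2 3 and limma-voom 2. In edgeR this was 25% of the list, against 18.9% of all tested genes. Pcsk1, a prohormone convertase, fell by 0.66 on the log2 scale (edgeR quasi-likelihood adjusted p = 9.89e-06), at 250.03 ± 14.7 CPM in Wfs1KO and 395 ± 22.4 CPM in WT. Pcsk2, a second convertase, had a log2 fold change of -0.21 that did not pass in edgeR (adjusted p = 0.0737) but did in DESeq2 (0.00505) and limma-voom (0.0255). Pam, which amidates peptides, had 0.22 and passed in DESeq2 alone (0.0363), and Cpe passed in none of the 3.

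Downstream of the receptors, gene lists had medians of -0.10 to 0.18, against 0.01 over all tested genes. Some lists held calls in both directions, and others in a single direction or none. Of 9 G protein alpha subunits 2 rose, 0 fell and 7 did not pass (median 0.01), so 22.2% were called, against 18.9% of all tested genes. Gnas, which encodes the Gs subunit, rose by 0.26 and Gnai1, a Gi subunit, by 0.22. Gnas shares exons with a gene on the other strand and stayed called without Wfs1KO replicate 2 or WT replicate 4, but not without any of the other 6 libraries (adjusted p 0.0624 to 0.126). Its call was also lost with DESeq2's size factors (0.0550), no filter (0.0596) and the acinar score as covariate (0.0736). Gnai1 lost its call without Wfs1KO replicate 2, 3 or 4 or WT replicate 2 or 3 (adjusted p 0.0586 to 0.0981). Of 12 tested beta and gamma subunits 1 rose, 2 fell and 9 did not pass (median 0.09), so 25% were called. Gng2 rose by 1.16 (36.3 ± 2.57 CPM in Wfs1KO and 16.3 ± 1.65 CPM in WT), while Gng12 fell by 0.67 and Gng4 by 0.36 on the log2 scale. Gng2 and Gng12 share exons with a gene on the other strand.

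Enzymes that make, break and read cyclic AMP held calls in both directions, at 10%, 21.4% and 33.3% of the 3 lists, against 18.9% of all tested genes. Of 10 adenylyl cyclases 1 rose, Adcy4 (0.54), 0 fell and 9 did not pass (median 0.07). Adcy4 lost its call without Wfs1KO replicate 1 or WT replicate 2 or 3 (adjusted p 0.0568 to 0.0808) and in replicates 3 and 4 alone (0.348). Of 14 cyclic nucleotide phosphodiesterases 1 rose, 2 fell and 11 did not pass (median -0.05), with Pde4d higher by 0.58 and Pde1c and Pde4b lower by log2 fold changes of -0.59 and -0.34. Of 12 genes of protein kinase A, the cyclic AMP sensor EPAC and CREB 1 rose, 3 fell and 8 did not pass (median -0.08). Rapgef3, which encodes EPAC1, rose by 0.50, while Rapgef4, which encodes EPAC2, fell (-0.21), as did the kinase subunit gene Prkar2b (-0.30) and the CREB coactivator gene Crtc1 (-0.28). Both Rapgef genes share exons with genes on the other strand. Prkar2b lost its call without Wfs1KO replicate 2 or WT replicate 1 (adjusted p 0.0516 to 0.0550) and Crtc1 without Wfs1KO replicate 1, 2 or 4 or WT replicate 3 or 4 (0.0655 to 0.0960).

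Proteins that switch receptor signals off held calls in both directions, at 42.9% of receptor kinases and arrestins and 41.7% of RGS proteins, against 18.9% of all tested genes. These shares were not tested against each other. Of 7 receptor kinases and arrestins 1 rose, 2 fell and 4 did not pass (median -0.06), with Arrb1 higher (0.46) and Arrb2 (-0.44) and Grk5 (-0.60) lower. Arrb1 lost its call without Wfs1KO replicate 1 or 2 or WT replicate 1 (adjusted p 0.0530 to 0.0597). Of 12 RGS proteins, which end G protein signals, 2 rose, 3 fell and 7 did not pass (median 0.18). Rgs4 rose by 0.90 (42.3 ± 2.54 CPM in Wfs1KO and 22.6 ± 3.94 CPM in WT) and Rgs2 by 0.60, while Rgs17 (-0.41), Rgs3 (-0.34) and Rgs12 (-0.33, adjusted p = 0.0437, named after its value was seen) fell. Rgs2 lost its call with the replicate number as a block (adjusted p = 0.140), without Wfs1KO replicate 1 or 2 or WT replicate 2 (0.0709 to 0.0997) and with limma-voom (0.0529), no filter (0.0630), the acinar score (0.0743), the block of replicates 1 and 2 against 3 and 4 (0.0769) or the exon share as a covariate (0.0823). Endothelial and pericyte markers were higher in these libraries, by medians of 0.53 and 0.58, and their part in the calls of receptor-signalling genes was not tested.

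Of 3 tested genes of GIRK potassium channels, which open on somatostatin receptor signals, 0 were called. They were Kcnj3 (0.31, adjusted p = 0.134), Kcnj6 (0.18, adjusted p = 0.426) and Kcnj9 (0.10, adjusted p = 0.922), and by an unadjusted p under 0.05 edgeR had 1, Kcnj3. DESeq2 and limma-voom also called 0 of the 3. Of 13 genes that carry receptors such as Sstr3 to the cilium 0 rose, 2 fell and 11 did not pass (median -0.10). The 2 calls are 15.4% of the list, against 18.9% of all tested genes. They were the BBSome subunit gene Bbs1 (30.2 ± 1.55 CPM in Wfs1KO and 38.8 ± 1.81 CPM in WT, -0.37) and the ciliary phosphatase gene Inpp5e (-0.29), which shares exons with a gene on the other strand. Inpp5e lost its call in replicates 3 and 4 alone (edgeR quasi-likelihood adjusted p = 0.110).

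**Figure D5:**
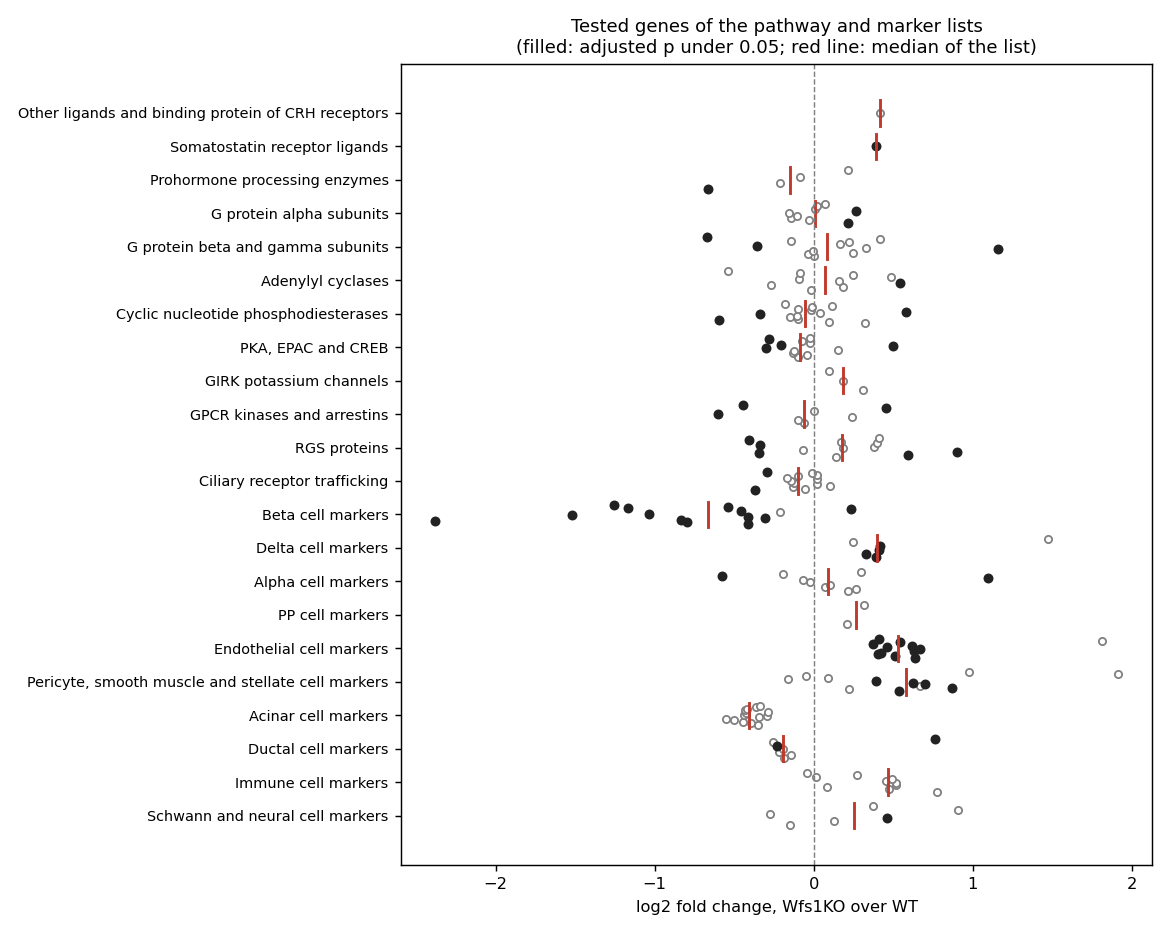
Log2 fold change of Wfs1KO over WT (x axis) of each tested gene, by list (rows), with filled points for an adjusted p under 0.05 and a red line at the list's median. The beta cell markers lie to the left (median -0.67) and the endothelial markers to the right (median 0.53), while the medians of the G protein, adenylyl cyclase and phosphodiesterase lists lie between -0.05 and 0.09.

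Among the 11542 other tested genes with a mean of at least 5 CPM, those most like Ucn3 across the 8 libraries were Rsrc2, Esyt1, Stxbp5l, Hepacam2 and Cryl1, with Pearson correlations of log2(CPM + 0.5) of 0.99, 0.99, 0.98, 0.98 and 0.98. The 2 genotypes form separate groups in Ucn3, so that these values include the difference between genotypes. With the genotype means removed they were 0.95, 0.89, 0.84, 0.83 and 0.75 over the same libraries, which also share depth and composition. All 5 genes fell, by log2 fold changes from -0.21 (Rsrc2) to -0.997 (Cryl1). A shared fall is in part built into picking genes by likeness to Ucn3. The nearest to the other members were Pcgf5, Tarbp1 and Pspc1 for Sstr3, and Fam219b, Hopx and Rit1 for Sstr2, with correlations of 0.95 to 0.97. They were Eral1, Arl16 and Lrrc8a for Sstr1, Unc50, Ergic3 and Srp14 for Crhr2, and Iah1, B430010I23Rik and Tmem9b for Crhr1, with correlations of 0.96 to 0.99. Such values can arise by chance when the nearest are picked from so many genes over 8 libraries, which was not tested. Crhr1 also had only 3 to 31 counts per library. Esyt1, Tarbp1, Fam219b, Hopx, Lrrc8a, Iah1 and B430010I23Rik share exons with genes on the other strand, so their counts are uncertain.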

How the data were processed

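RNA of 8 islet samples was measured, 4 per genotype. Per the labels' protocols, poly(A) RNA was selected from total RNA. The submitters' processing notes name STAR 2.6.0a, HOMER 4.11.1 and mm10. Per the file headers, the deposited values are raw counts in exons, with 1 condensed entry per gene and no strand option. The authors also deposited log2 fold changes and p-values of their own comparison; the notes name DESeq2, and its settings are not given in the sources used here. Their fold changes have the same sign as those computed here in 97.8% of tested genes. Transformed log2 values in the deposited files were not used. No column of another sample was present (0).

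Differential expression was computed with edgeR 4.0.16 under R 4.3.3: TMM scaling, filterByExpr by genotype with a minimum count of 10, a robust quasi-likelihood F-test and Benjamini-Hochberg adjustment over 15733 genes, called under 0.05. The code was tested on simulated data. A gene is said to have risen or fallen where it was called. CPM use TMM-scaled library sizes, and CPM per kb divide by the exonic length in the count table. The SE is the size of the log2 fold change over the root of F. The floor for a count of 0 (3 counts) covers counting error only. DESeq2 1.42.0 and limma 3.58.1 served as alternatives, beside other filters and scalings, blocks, covariates and left-out libraries. Exon overlaps were read from GENCODE M21.

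The members, the 22 gene lists (201 genes, all in the table) and the tests were chosen with earlier results of these data known, and lists were described by counts and medians with no set test. Named genes were the members, 11 hormone, ligand and control genes, up to 4 called genes with the smallest adjusted p per pathway list and up to 2 per marker list, and the genes most correlated with each tested member; some marker genes and the counts of their lists are not reported here. The covariate of exon share was added after the data were seen. Replicate numbers are those of the labels, and their meaning is not given there. Same-numbered samples deviated together from their genotype means, with correlations across genes of 0.153, 0.443, 0.269 and 0.188, so they may be paired. The values reported are nevertheless from the fit by genotype without a block and from unpaired permutation tests, with the replicate block as an alternative.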

Additional observations from a re-analysis of the deposited data

Results flagged for a closer look

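In 8 of 148 groups of 4 libraries examined, 1 library lay apart from the other 3, beyond Dixon's 95% critical value, which chance passes in about 1 of 20 groups. Of the members, this concerned Crhr2 in WT, where replicate 4 stood at 2.45 CPM and the other 3 WT libraries at 1.67 to 1.73 CPM. WT replicate 4 was also high in Ergic3 (88.9 CPM) and Fam219b (28.2 CPM). Wfs1KO replicate 1 was high in Adcy4 (7.88 CPM), in Fam219b (27.8 CPM) and in Crh (0.0700 CPM, 2 counts, with 0 in the other 3). Wfs1KO replicate 3 was high in Gcg (24644 CPM) and Wfs1KO replicate 4 was high in Stxbp5l (30.7 CPM). The causes were not tested.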

How the results depend on the processing

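Ucn3 kept its direction and its call under all alternatives run, with log2 fold changes of -0.54 to -0.48 and, leaving out 1 library at a time, -0.56 to -0.47. Crhr2, Sstr1, Sstr2 and Sstr3 kept their direction and stayed uncalled in all of them. Crhr1 was called with the replicate block (-1.50), with the block of replicates 1 and 2 against 3 and 4 (-1.47), in replicates 3 and 4 alone (-2.65) and with the exon share as a covariate (-1.23). Leaving out 1 library at a time gave -1.88 to -1.07, and DESeq2 gave it no adjusted p. The difference of Ucn3 over insulin genes was 0.29 against Ins2 alone, 0.016 in replicates 1 and 2 alone and 0.34 in replicates 3 and 4 alone. The number of called genes, 2970, was 1846 in replicates 3 and 4 alone, where the cause was not tested, against 2939 in replicates 1 and 2 alone, and 1744 at the stricter threshold of an adjusted p under 0.01. In replicates 3 and 4 alone Crhbp (-0.14), Ppy (-0.13), Rit1 (-0.017) and Fam219b (-0.00083), none of them called, turned negative. Besides Crhr1, the replicate block moved the calls of Rgs2 (adjusted p = 0.140) and the ductal gene Spp1 (0.0559) among the genes picked by the naming rule. It changed no other call of theirs. Genes named outside that rule, such as Iapp, Rgs12, Ffar4 and Ghsr, are not covered. Paired over replicate numbers, the exact sign-flip test of the ratios gave p = 0.125 for Sst over Ucn3, the smallest it can give, and 0.25 for Ucn3 over insulin genes. Depth limits Crhr1, Sstr4 and Sstr5, with 0 to 31 counts per library.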
